A study of Saccharomyces cerevisiae with 50 samples.

Results

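The promoters occupied by the transcription factors Nrg1p and Sut1p were compared in wild-type cells of Saccharomyces cerevisiae, from 3 chromatin immunoprecipitations (IPs) of Nrg1p and 3 of Sut1p. These are 6 of the 30 IPs and of the 50 samples of the series. A promoter was the 600 bp upstream of a gene of the R64 annotation, and it was called bound by a factor when a peak overlapped it in at least 2 of that factor's 3 IPs. Of 6430 promoters, 12 (0.187%) were bound by Nrg1p and 229 (3.56%) by Sut1p. This gave 6 promoters bound by both factors (0.0933%), 6 bound by Nrg1p only and 223 bound by Sut1p only, where "only" means that the other factor had a peak in fewer than 2 of its IPs. The shared promoters were 50.0% of those bound by Nrg1p and 2.62% of those bound by Sut1p. They numbered 2 without Sut1p IP1 or without Sut1p IP2, and 0 when each Sut1p list was limited to its 47 best peaks, the length of the longest Nrg1p list.

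Both strains were W303 strain Z1256 by their labels and carried the factor with a myc tag at its C terminus. They were grown in rich glucose medium (YPD) at 30°, without rapamycin, and were cross-linked with 1% formaldehyde at an optical density of about 0.8. The methods describe 1 culture per wild-type strain that was split into 3 before the IP, so the 3 IPs of a factor share their growth and the spread between them may be technical. For a look beyond the rule, IPs of Nrg1p from a sut1Δ strain and of Sut1p from an nrg1Δ strain, 3 each from cultures grown separately, were set beside these sets. A drug resistance cassette took the place of SUT1 or NRG1 in them. Also used were 9 wild-type IPs of the other 4 tagged factors. Of those 4 factors, Gcn4p and Rtg3p were taken from cells treated with 100 nM rapamycin.

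Nrg1p is a zinc-finger repressor that recruits the Tup1-Cyc8 corepressor and is known for holding down glucose-repressed genes, filamentous growth genes and the sodium pump gene ENA1. Sut1p is a zinc-cluster factor named for sterol uptake, which is otherwise seen in anaerobic cells, and it is known to act on genes that Tup1-Cyc8 represses and on filamentation. The comparison asks which promoters both proteins occupy in glucose-grown cells, which genes lie behind the promoters taken by only 1 of them, and how close the 2 factors' peaks lie.

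The Nrg1p IPs gave 15, 9 and 47 peaks at 18, 14 and 85 promoters, and the Sut1p IPs gave 117, 267 and 579 peaks at 186, 439 and 730 promoters. On average 39.0 ± 39.9 promoters had a peak per Nrg1p IP and 451.7 ± 272 per Sut1p IP (SD, n = 3 each). The groups did not overlap in peaks or in promoters, but a two-sided exact permutation test of 3 against 3 IPs cannot go below P = 0.1, which is the value both measures reached (0.25 after adjustment over 5 measures). Peaks had a median width of 972, 1183 and 1197 bp in the Nrg1p IPs and of 1355, 1183 and 1422 bp in the Sut1p IPs (exact permutation P = 0.3). Peaks overlapped a promoter in 88.4% ± 10.4 of cases per Nrg1p IP and in 86.5% ± 13.0 per Sut1p IP (SD, n = 3 each, exact permutation P = 1). Midpoints lay a median of 421, 481 and 298.5 bp from the nearest start codon in the Nrg1p IPs, against 546, 434.5 and 514.5 bp in the Sut1p IPs (exact permutation P = 0.2). Differences in width, promoter share and distance to the start were thus not resolved with 3 IPs of each factor.

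Sut1p IP3 stood apart from IP1 and IP2. Of the 186 promoters of Sut1p IP1, 175 also had a peak in IP2 (94.1%), whereas 35 had one in IP3 (18.8%). IP3 had the most peaks and the lowest median score, 117.2 against 386.9 in IP1 and 270.3 in IP2. The score is the one MACS gives each peak; it rises as the P-value of the peak falls, and no peak below 50 is listed. Of the 730 promoters of IP3, 89 were also found in wild-type Sut1p IP2 (12.2%), whose list covers 6.83% of all promoters. In the 3 Sut1p IPs of the nrg1Δ strain, whose longer lists cover 12.2%, 16.3% and 18.2% of all promoters, 289, 419 and 434 of them were found (39.6%, 57.4% and 59.5%). Whether the label of this library holds could not be tested, so each value that rests on it carries that doubt. Without IP3 there were again 6 shared promoters and 6 bound by Nrg1p only, and 169 bound by Sut1p only. These are the same shared promoters, since each of them had a Sut1p peak in both IP1 and IP2.

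**Figure D1:**
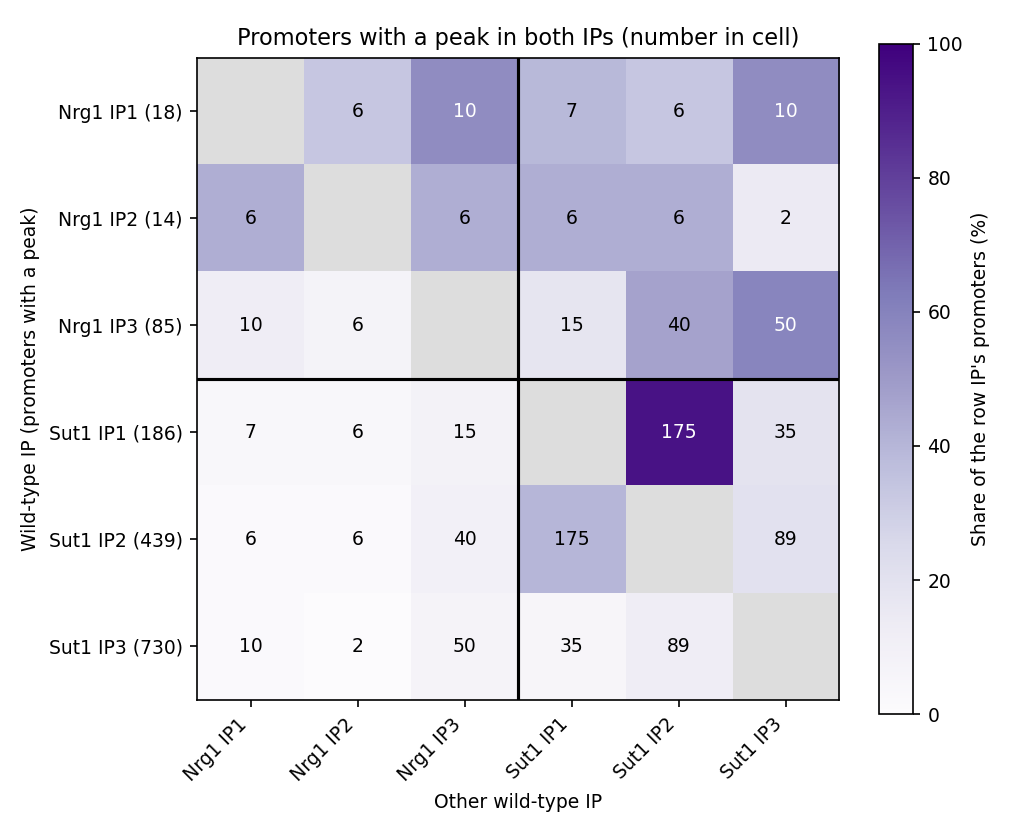
Number of promoters with a peak in each pair of wild-type IPs (cells), coloured by the share of the row IP's promoters in percent; the total of each IP is in brackets. Sut1p IP1 and IP2 shared 175 promoters, and Sut1p IP3 shared 35 and 89 with them. Nrg1p IP3 shared 10 and 6 promoters with Nrg1p IP1 and IP2, or 55.6% and 42.9% of their short lists of 18 and 14. It shared 40 and 50 with Sut1p IP2 and IP3, or 9.11% and 6.85% of their lists of 439 and 730.

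Nrg1p IP3 also differed from its replicates. It held 74 promoters that neither Nrg1p IP1 nor IP2 had. Of the 88 promoters with an Nrg1p peak in a single IP, 68 (77.3%) also had one of Sut1p in some wild-type IP, as did 9 of the 12 Nrg1p-bound promoters (75%), against 1014 of the 6330 promoters without an Nrg1p peak (16.0%). The 74 promoters of Nrg1p IP3 alone also had peaks of Gcn4p in 23.0% to 40.5% of cases per IP, against 9.78% to 10.5% of all promoters, and of Rtg3p in 12.2% to 44.6%, against 1.94% to 5.46% of all promoters. Swi6p had peaks at 20.3% in both IPs, against 7.0% to 8.55% of all promoters, whereas Swi4p had none there, against 2.26% of all promoters. In the 3 nrg1Δ IPs Sut1p had a peak at 74.3%, 85.1% and 73.0% of the 74, against 12.2%, 16.3% and 18.2% of all promoters. In the 3 sut1Δ IPs Nrg1p had one at 8.11%, 16.2% and 0.0% of them, against 0.7%, 1.34% and 0.342% of all promoters. What share the sites of Gcn4p, Rtg3p, Swi6p and Sut1p have in the Nrg1p signal was not tested.

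The shared promoters belong to SOR2, HXT15, HXT16, SOR1, ENA1 and RSM10. SOR1 and SOR2 encode sorbitol dehydrogenases, HXT15 and HXT16 encode members of the hexose transporter family, ENA1 encodes a sodium-exporting P-type ATPase and RSM10 a protein of the small mitochondrial ribosomal subunit. ENA1 and RSM10 diverge from 1 intergenic region and share their peaks, so the 6 promoters rest on 5 stretches of Nrg1p peaks. Of the 6 promoters, 4 lay within 25 kb of the outermost annotated gene of their chromosome (66.7%), against 336 of all 6430 promoters (5.23%).

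SOR2 (YDL246C, promoter at positions 9757 to 10356 of chromosome IV) had Nrg1p scores of 81.35, 81.1 and 96.54 in IP1 to IP3 and Sut1p scores of 810.98, 829.88 and 165.7. SOR1 (YJR159W, positions 735444 to 736043 of chromosome X) had Nrg1p scores of 133.7, 100.31 and 215.71 and Sut1p scores of 595.69, 997.82 and 93.88. These were the 2 promoters at which all 6 IPs had a peak. HXT15 (YDL245C, positions 13361 to 13960 of chromosome IV), the neighbour of SOR2, had Nrg1p scores of 144.42, 586.96 and 121.9, and Sut1p scores of 310.31 and 494.05 with no peak in IP3. HXT16 (YJR158W, positions 731840 to 732439 of chromosome X), the neighbour of SOR1, had Nrg1p scores of 53.54 and 416.51 with no peak in IP3, and Sut1p scores of 148.24 and 89.63 with no peak in IP3. Thus 2 pairs of neighbours, each a transporter gene beside a sorbitol dehydrogenase gene, carried separate peaks of both factors at each gene. SOR1 and SOR2, and likewise HXT15 and HXT16, are near-identical copies, and only uniquely aligned reads were kept, so how the reads divide between the copies is uncertain.

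ENA1 (YDR040C, promoter at positions 538468 to 539067 of chromosome IV) and RSM10 (YDR041W, positions 539203 to 539802) had Nrg1p scores of 530.06, 164.87 and 363.89, and Sut1p scores of 121.43 and 477.73 with no peak in IP3. In Nrg1p IP2 the peak spanned 4694 bp, across ENA1 and into the promoter of ENA2, whereas it was 1186 and 1194 bp wide in IP1 and IP3. ENA2, the next copy in this tandem array, was reached by that wide peak alone in wild type, and ENA5 had no peak in any of the 6 IPs. These copies are near-identical as well, so the values at ENA2 and ENA5, looked up after the values were seen, are uncertain.

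**Figure D2:**
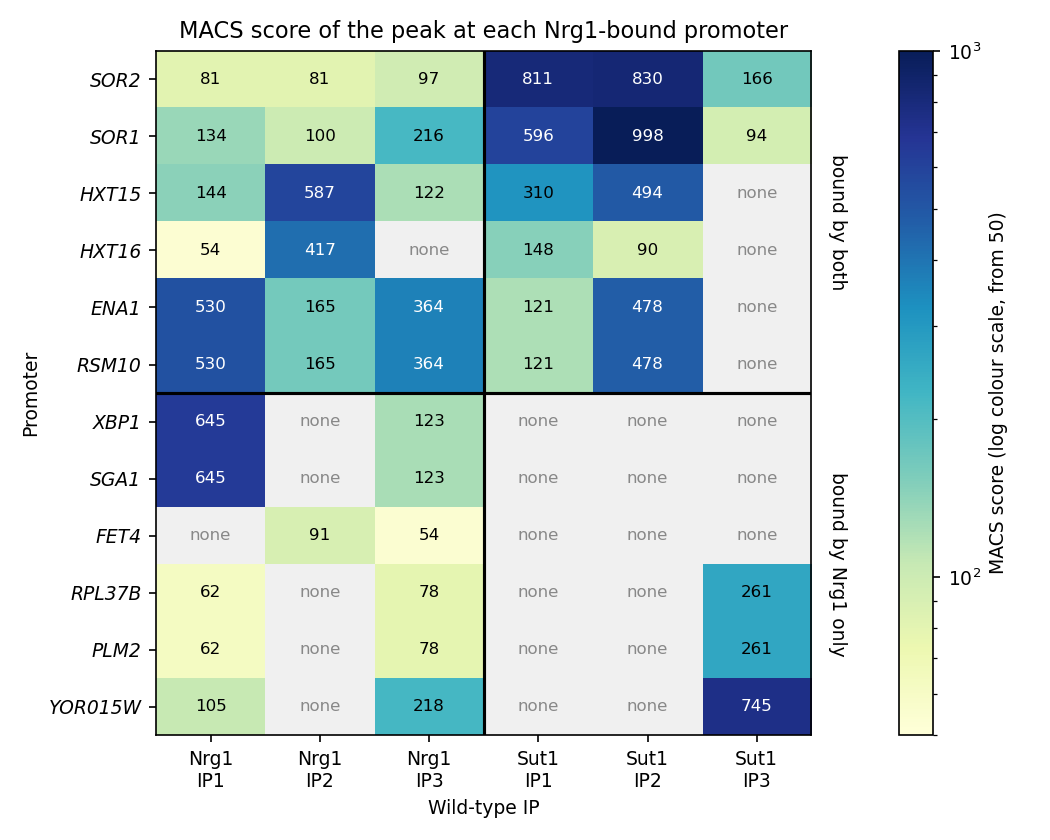
MACS score of the peak (colour on a log scale, value in the cell) at the 12 promoters bound by Nrg1p, in the 3 Nrg1p and the 3 Sut1p wild-type IPs; the upper 6 rows are bound by both factors and the lower 6 by Nrg1p only. SOR2 and SOR1 had a peak in all 6 IPs, XBP1, SGA1 and FET4 had no Sut1p peak, and RPL37B, PLM2 and YOR015W had one in Sut1p IP3 alone.

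Scores set the 2 factors in a different order at these loci. At SOR2 every Sut1p score was above every Nrg1p score, at HXT16 and ENA1 the factors overlapped, and at HXT15 the highest score of all was an Nrg1p one. No test was run on these scores, because they made the members and because a score grows with sequencing depth, which the lists do not give.

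Peak midpoints of the 2 factors lay close together at the shared promoters. Over 40 pairs of an Nrg1p peak with the nearest Sut1p peak at the same promoter, the median distance was 43.5 bp, with a range of 2.0 to 1750.5 bp. As a ruler, the midpoints of 2 IPs of the same factor lay a median of 32.25 bp apart for Nrg1p (16 pairs) and 59.5 bp for Sut1p (10 pairs), so the distance between factors was of the size of the distance between replicates. Peaks were about 1 kb wide, which limits what a midpoint can resolve. A shared promoter needs peaks of both factors over the same 600 bp, and the nearest peak was paired. The choice of pairs thus itself favours short distances. The side differed between promoters. At HXT15 the Nrg1p midpoint was nearer to the start in all 6 pairs, by a median of 38.75 bp, whereas it was farther upstream in 7 of 9 pairs at SOR1 and in 6 of 9 at SOR2, where the Sut1p IP3 peaks take part. With RSM10 left out, which mirrors ENA1 on the same peaks, Nrg1p was farther upstream in 17 of 34 pairs.

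Promoter by promoter, the median distance between factors was 34.5 bp at SOR2, 38.75 bp at HXT15, 24.75 bp at HXT16, 72.5 bp at SOR1 and 45 bp at ENA1 and RSM10. The long distances came from 2 sources. Against Sut1p IP3 the Nrg1p midpoints lay a median of 286.5 bp away (6 pairs), because the IP3 midpoints sat nearer to the gene: 195 bp upstream of the SOR2 start, against 483.5 and 459.5 bp in Sut1p IP1 and IP2, and 101 bp upstream of the SOR1 start, against 456.5 and 430.5 bp. The wide Nrg1p IP2 peak at ENA1 put its midpoint 1750.5 bp from that of a Sut1p peak at the farthest. With Sut1p IP3 left out the median was 39.25 bp over 34 pairs, and with the wide peak left out too, a choice made after seeing the data, it was 33.25 bp over 30 pairs with a range of 2.0 to 98.5 bp. Without Sut1p IP1 or IP2, where 2 promoters stay shared, it was 163 and 176 bp.

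**Figure D3:**
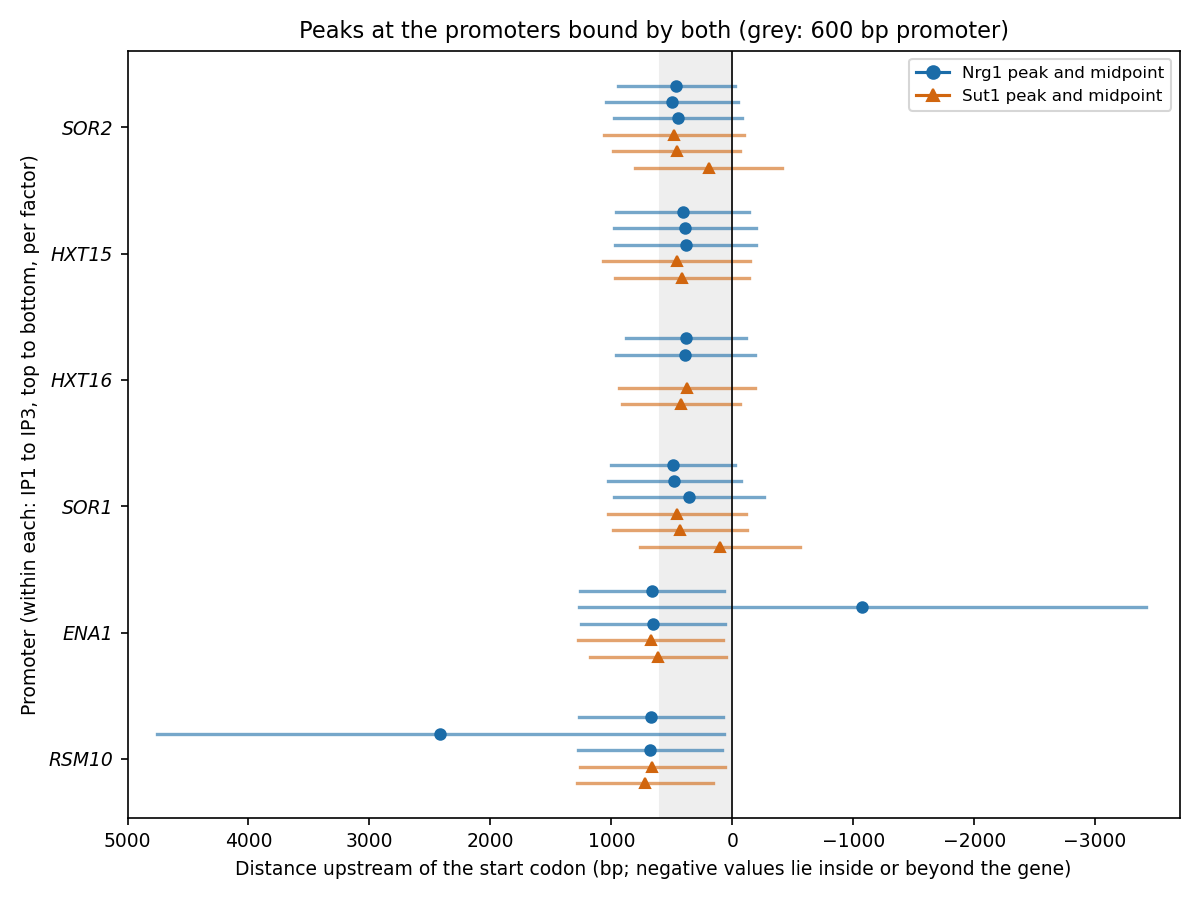
Extent (line) and midpoint (circle, Nrg1p; triangle, Sut1p) of every wild-type peak at the 6 shared promoters, as distance upstream of the start codon in bp; the grey band is the 600 bp promoter and the IPs of a factor run from IP1 to IP3 downwards. Midpoints of both factors lay together, apart from the Sut1p IP3 peaks at SOR2 and SOR1 (195 and 101 bp) and the 4694 bp Nrg1p IP2 peak at ENA1 and RSM10.

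Midpoints at the shared promoters lay a median of 475.5, 436.2 and 449.0 bp upstream of the start in the 3 Nrg1p IPs, and of 471.8, 445.0 and 148.0 bp in the 3 Sut1p IPs, the last from the SOR1 and SOR2 peaks of IP3 alone. At promoters bound by Sut1p only, the Sut1p midpoints lay a median of 578.0, 544.0 and 533.0 bp upstream in IP1 to IP3. Over all peaks, those at the shared promoters included, 6, 5 and 6 of the 15 peaks of Nrg1p IP1 had a midpoint of Sut1p IP1, IP2 and IP3 within 500 bp. The same held for 4, 4 and 2 of the 9 peaks of Nrg1p IP2, and for 7, 18 and 29 of the 47 peaks of Nrg1p IP3 (14.9%, 38.3% and 61.7%), which follows the order of the Sut1p list lengths. Seen from Sut1p the shares were small: 5.13% of the 117 peaks of Sut1p IP1 had an Nrg1p IP1 midpoint within 500 bp, and 5.01% of the 579 peaks of Sut1p IP3 had an Nrg1p IP3 midpoint there.

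The promoters bound by Nrg1p only fell into 2 kinds by their Sut1p record. XBP1, SGA1 and FET4 had no Sut1p peak in any wild-type IP. XBP1 encodes a stress-induced transcriptional repressor and SGA1 a glucoamylase of sporulating cells; they are divergent neighbours (XBP1 promoter at positions 177251 to 177850 of chromosome IX) under 1 Nrg1p peak with scores of 644.91 in IP1, none in IP2 and 123.2 in IP3. FET4, the low-affinity iron transporter gene (positions 914539 to 915138 of chromosome XIII), had none in IP1, then 90.68 and 53.95. These scores reach from the best of Nrg1p IP1 down to the edge of the cutoff of 50.

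RPL37B, PLM2 and YOR015W had an Nrg1p peak in 2 IPs and a Sut1p peak in IP3 alone. Most of these Nrg1p peaks reached the 600 bp promoter with their midpoint outside it. Counted upstream of the start, with negative values downstream, midpoints in IP1 and IP3 were -247.5 and -157.5 bp at RPL37B. They were 747.5 and 657.5 bp at PLM2, and 155.0 and -213.0 bp at YOR015W. RPL37B, a ribosomal protein gene, and PLM2, which encodes a protein with a forkhead-associated domain, share a peak (RPL37B promoter at positions 1450854 to 1451453 of chromosome IV) with Nrg1p scores of 62.27, none and 78.03 and a Sut1p IP3 score of 260.82. YOR015W (positions 359393 to 359992 of chromosome XV) had Nrg1p scores of 105.35, none and 218.04 and a Sut1p IP3 score of 745.2. At each of these 3 promoters the Sut1p IP3 score was above both Nrg1p scores. With the stricter rule of no Sut1p peak in any wild-type IP, the set is XBP1, SGA1 and FET4. The set also rests on single Nrg1p IPs: 1 promoter remained without Nrg1p IP1, 5 without IP2 and 0 without IP3, because a peak was then needed in both remaining IPs.

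Just outside the rule, the highest mean Nrg1p score among promoters with a peak in 1 Nrg1p IP belonged to the array of the metallothionein gene CUP1-1. Its 5 promoters (RUF5-1, YHR052C-B, CUP1-1, YHR054C and RUF5-2, on chromosome VIII) lie under 1 Nrg1p IP3 peak with a score of 1125.7, and under a Sut1p IP2 peak of 2173.38 with none in Sut1p IP1 or IP3. Just inside it, RPL37B and PLM2 had a mean Nrg1p score of 46.77 and FET4 of 48.21. NRG1 itself (YDR043C, chromosome IV) had an Nrg1p peak in IP3 alone (384.53), beside Sut1p scores of 143.15 and 920.64 with none in IP3, and so belongs to the promoters bound by Sut1p only. SUT1 had no Nrg1p peak and 1 Sut1p peak, in IP2 (329.94).

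The 223 promoters bound by Sut1p only belong to 201 protein-coding genes, 10 tRNA genes, 7 snoRNA genes and 5 others, and lie under 132 stretches of Sut1p peaks on 16 chromosomes. Of these promoters, 169 had a peak in both IP1 and IP2, and 54 were called from IP2 and IP3. Nrg1p had no peak in any wild-type IP at 195 of them and a peak in IP3 at the other 28. The set held 87 promoters without Sut1p IP1 and 33 without Sut1p IP2. Of the 223, 10 lay within 25 kb of a chromosome end (4.48%, against 5.23% of all promoters), and 79 (35.4%, against 49.4% of all) overlapped the promoter of a divergent neighbour.

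The strongest promoters of this set, ranked by mean score where all 3 Sut1p IPs had a peak, were 15 promoters under 7 stretches. All 15 had a score of 3100 in IP1 and IP2, a ceiling that 21 and 44 promoters of the set reached or passed in those IPs, so their order rests on IP3 alone. HAP4, the activating subunit of the factor for respiratory genes, and its neighbour KTI12 had 815.33 in IP3. COR1, a core protein of respiratory complex III, had 462.18 together with YBL044W and ECM13, and ROX1, the repressor of hypoxic genes, had 427.12 together with YPR063C and YPR064W. The others in IP3 were CCW22 (225.65), RGS2, a negative regulator of glucose-induced cAMP signalling (184.85), PET9, the mitochondrial ADP/ATP carrier, with YBL029C-A and YBL029W (71.74), and RHO3, a GTPase of polarised growth, with RPI1 (65.51). None of the 15 had an Nrg1p peak in wild type.

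Gene functions were described with 17 lists of genes. Of the Nrg1p-bound promoters, SOR1, SOR2, RSM10, SGA1 and YOR015W are on no list. The lists share members: HAP4, ROX1, ADR1, MOT3, MSN2 and MSN4, among others, count for the transcription factors and for another list. Sut1p bound members of 15 lists and Nrg1p of 4, and 2 lists had no Sut1p-bound member. In each of those 15 lists the Sut1p share was above the 3.56% of all promoters, at the least with 3.64%. In a short list 1 bound member is enough for that. This was so for glycolysis and fermentation (1 of 27, 3.7%), cation pumps (1 of 25, 4.0%) and glycogen and trehalose metabolism (1 of 20, 5.0%). Per IP, 10 of the 17 lists had a smaller share with an Nrg1p peak in every Nrg1p IP than with a Sut1p peak in any Sut1p IP, by 8.27 to 25.3 percentage points in the mean. Each of the 10 had an exact permutation P of 0.1, the lowest that 3 against 3 IPs allow (0.17 after adjustment over the 17 lists). Over all promoters the share with a peak was 0.607% ± 0.619 per Nrg1p IP and 7.02% ± 4.26 per Sut1p IP (SD, n = 3 each), 6.42 points lower for Nrg1p, so the smallest of these list differences lie near that of all promoters. Nrg1p bound 0.187% of all promoters, so a list of these sizes without an Nrg1p-bound member says little.

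**Figure D4:**
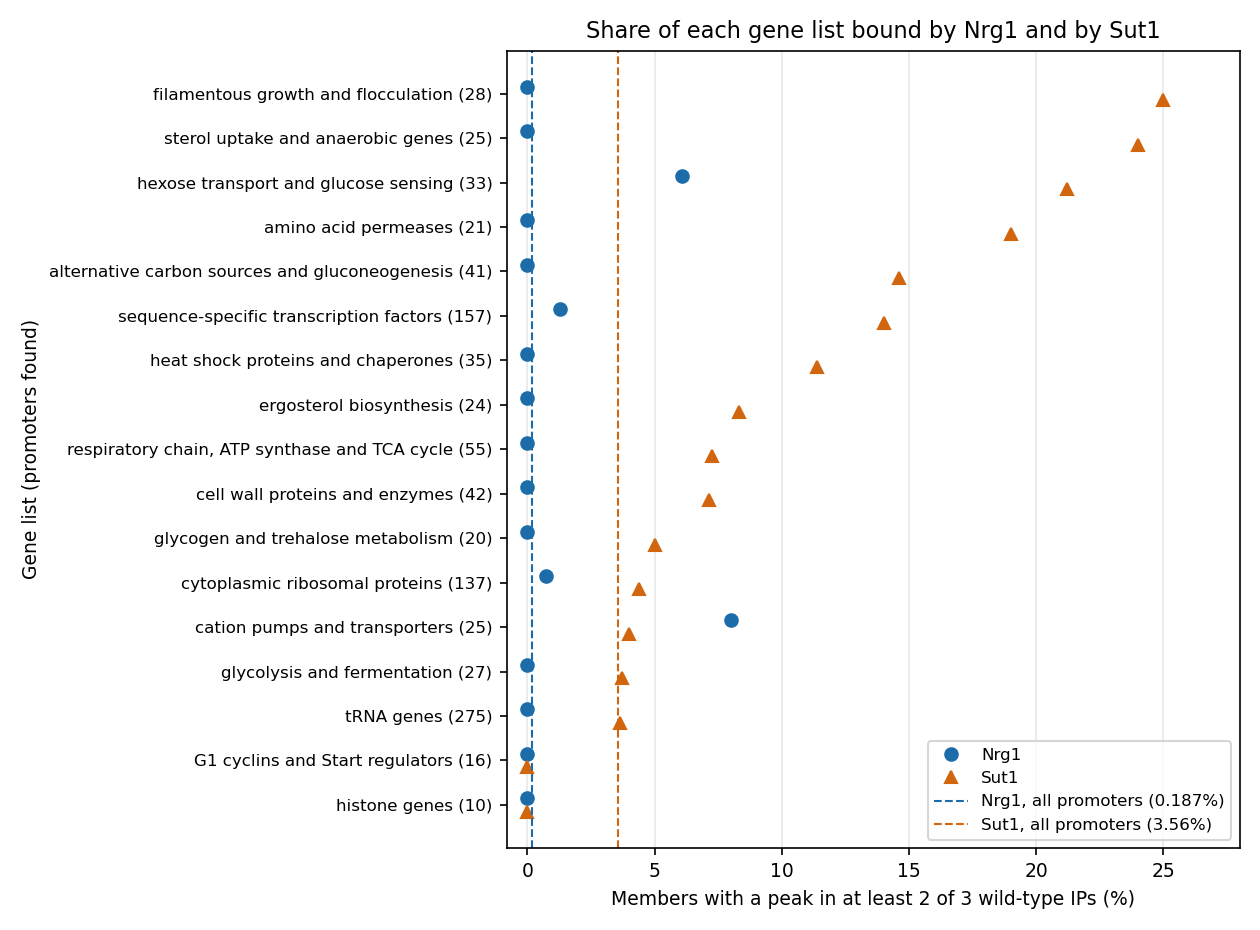
Share of each gene list's promoters (percent, number of promoters in brackets) with a peak in at least 2 of 3 wild-type IPs of Nrg1p (circles) and of Sut1p (triangles); dashed lines give the share of all 6430 promoters. Filamentous growth, sterol uptake and anaerobic genes, and hexose transport had the highest Sut1p shares (25%, 24% and 21.2%), and cation pumps were the list with a higher Nrg1p share (8.0%) than Sut1p share (4.0%).

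Transcription factor genes made up the largest group. Sut1p bound 22 of 157 promoters of sequence-specific factors (14.0%), all 22 in both IP1 and IP2 and under 22 separate stretches, and Nrg1p bound 2 (XBP1 and PLM2, 1.27%), neither of them shared. Per IP, 2, 0 and 5 of these promoters had an Nrg1p peak, against 22, 31 and 24 with a Sut1p peak. Beside HAP4 and ROX1, ADR1, the activator of ethanol and fatty acid utilisation genes, and HMS1 had Sut1p scores of 3100 in IP1 and IP2 with none in IP3. Further members were CIN5, MOT3, YAP6, the stress activators MSN2 and MSN4, GIS1, CUP9, VHR1, STP4, SMP1, RSF2, TOS8 and SUT2, the closest relative of SUT1. The 22 regulators were bound with Sut1p IP3 left out as well.

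Filamentous growth and flocculation genes had the highest share, 7 of 28 (25%) for Sut1p and 0 for Nrg1p. Of all promoters, 3.56% were bound by Sut1p and 0.187% by Nrg1p. Of these 7, all but FLO9 are also on the list of sequence-specific factors. HMS1 led, followed by MGA1 with 1809.04, 3100 and 128.4, PHD1 with 863.56 and 3100, and SOK2 with 608.95, 2219.5 and 264.12, all regulators of pseudohyphal growth. The remaining members were the flocculin gene FLO9, FLO8, annotated as a pseudogene in this reference, and NRG1. Nrg1p had a peak at 0, 0 and 1 of the 28 promoters per IP, against 8, 9 and 2 for Sut1p. The adhesin gene FLO11, looked up after the values were seen, had a Sut1p peak within 600 bp in IP1 alone (3100). PWR1 is a noncoding RNA transcribed in the long FLO11 upstream region. The Sut1p peaks that overlapped its promoter had their midpoints 1276 bp from the FLO11 start in IP1 and 1284.5 bp in IP2. The promoters of YIR020C and PWR1 were both called bound (3100 in IP1 and IP2).

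Of the sterol uptake and anaerobic genes, Sut1p bound 6 of 25 (24.0%) and Nrg1p 0, against 3.56% and 0.187% of all promoters. ROX1, MOT3 and SUT2 of these are also on the list of sequence-specific factors. After ROX1 came MOT3, a second repressor of hypoxic genes, with 1427.3 and 3100, then PDR11, a transporter for sterol uptake, and TIR3, a cell wall mannoprotein gene, which share a peak of 386.92 and 1417.02. SET4 (516.4 and 1060.41) and SUT2 completed the 6, and all 6 had peaks in IP1 and IP2. Ergosterol biosynthesis had 2 of 24 (8.33%), ERG3 with 113.84 and 679.68 in IP1 and IP2, and ERG5 with 150.7 and 264.12 in IP2 and IP3. The IP3 score of ERG5 is also that of SOK2 on the same chromosome, so both may lie under 1 wide IP3 peak. Per IP, no Nrg1p peak fell on either list.

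Hexose transport and glucose sensing was 1 of the 2 lists with members bound by both factors, the other being cation pumps with ENA1. Sut1p bound 7 of 33 (21.2%) and Nrg1p 2 (6.06%), HXT15 and HXT16. The 5 bound by Sut1p only were the high-affinity transporter genes HXT2 (817.25 and 2349.33) and HXT6 (768.25, 1568.32 and 101.81), HXT13 (521.69 and 536.0), the galactose transporter gene GAL2 (86.54 and 209.63) and HXT3 (140.86 and 101.81 in IP2 and IP3). HXT3 and HXT6, both on chromosome IV, have the same IP3 score and may share that peak. The 7 promoters lie under 6 stretches of Sut1p peaks. HXT13 resembles HXT15 and HXT16 and lies on chromosome V beside DSF1, the gene of a polyol dehydrogenase, which had Sut1p scores of 500.81 and 735.65. The like pair HXT17 and MAN2 on chromosome XIV had no peak in any wild-type or deletion-strain IP of the 2 factors. Only uniquely aligned reads were kept, so a missing peak at genes this alike is uncertain as well. DSF1, HXT17 and MAN2 were looked up after the values were seen.

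Sut1p bound 6 of 41 promoters of the list of alternative carbon sources and gluconeogenesis (14.6%). Nrg1p bound 0, against 0.187% of all promoters, but the list does not hold SOR1 and SOR2, which both factors bound. ADR1 led, with STL1, the glycerol symporter gene (2699.29 and 3100), JEN1, the lactate permease gene (951.98 and 2073.27), and ALD6, an acetaldehyde dehydrogenase gene (151.79 and 1467.91). MDH2 and PCK1, enzymes of gluconeogenesis, had 131.8 and 797.85, and 71.29 and 124.14. Of the respiratory chain, ATP synthase and TCA cycle genes, Sut1p bound 4 of 55 (7.27%): HAP4, COR1, ACO1 (352.77 and 1674.39) and NDE1 (116.77 and 1349.66). Of glycolysis and fermentation it bound 1 of 27 (3.7%), ENO1 with 76.73 and 658.5, a share next to that of all promoters. Nrg1p bound no member of these lists either.

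Amino acid permeases had 4 of 21 bound by Sut1p (19.0%), the proline permease gene PUT4 (1238.33 and 3100), TAT1 (178.83 and 1028.98), GNP1 (664.35 and 486.96 in IP2 and IP3) and MUP1 (66.2 and 602.76). Heat shock proteins and chaperones, a list that also holds their activators, had 4 of 35 (11.4%), MSN2 (1362.49 and 3100), MSN4 (611.75 and 2436.47), and MDJ1 and HSP12, which share a peak of 125.09 and 66.37 in IP2 and IP3. Cell wall genes had 3 of 42 (7.14%), SED1 (1056.72 and 3118.73), CWP1 (411.24 and 1957.42) and EXG1 (61.35 and 311.33). Glycogen and trehalose metabolism had 1 of 20 (5.0%), GAC1, a phosphatase regulator (326.76 and 612.35). Nrg1p, which bound 0.187% of all promoters, bound no member of these 4 lists. Its single-IP peaks there were in IP3, at 1 permease and 2 heat shock promoters. The glucoamylase gene SGA1, which Nrg1p bound, is not on the glycogen list.

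Some lists were near the background or changed with Sut1p IP3. Ribosomal protein genes had 6 of 137 bound by Sut1p (4.38%), led by RPS3 (1066.52 and 3100) and RPS19A (211.11 and 890.8), and 1 by Nrg1p, RPL37B. Of tRNA genes, 10 of 275 were bound by Sut1p (3.64%), 7 of them from IP2 and IP3, so that 3 (1.09%) were left without IP3. Without IP3 the share of heat shock genes was 5.71% and that of ergosterol genes 4.17%. Cation pumps were the list with more Nrg1p than Sut1p members, ENA1 and FET4 of 25 (8.0%) against ENA1 (4.0%), with an exact permutation P of 0.8 over IPs. No G1 cyclin or Start regulator (0 of 16) and no histone gene (0 of 10) was bound by either factor. With 3.56% of all promoters bound by Sut1p and 0.187% by Nrg1p, lists this short may hold none in any case. Of the 7 snoRNA genes, SNR73 to SNR78 lie in tandem under 1 peak (144.12 and 123.91 in Sut1p IP1 and IP2), so they are 1 event.

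In the sut1Δ strain the shared promoters kept their Nrg1p peaks. Each of the 3 Nrg1p IPs from sut1Δ cells had a peak at all 6, against 6, 6 and 5 in the wild-type IPs. Scores at HXT15 were 1134.44, 1148.38 and 523.07 in sut1Δ, against 144.42, 586.96 and 121.9 in wild type, and at SOR1 they were 925.12, 1496.54 and 397.31, against 133.7, 100.31 and 215.71. In the nrg1Δ strain Sut1p had a peak at 0, 1 and 2 of the 6, against 6, 6 and 2 in wild type, although the nrg1Δ lists are longer (785, 1051 and 1168 promoters, against 186, 439 and 730). The nrg1Δ peaks were at SOR1 (51.64 and 144.48 in IP2 and IP3) and SOR2 (87.41 in IP3), which are also where wild-type Sut1p IP3 had its peaks. Since the wild-type IPs chose the set, no test between strains was run, and the choice itself favours the wild-type values. From ratios of IP to INPUT reads, the study reported that Nrg1p occupancy of its own joint targets depends on SUT1. None of the 6 promoters here is among those targets, and a peak score is another measure.

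**Figure D5:**
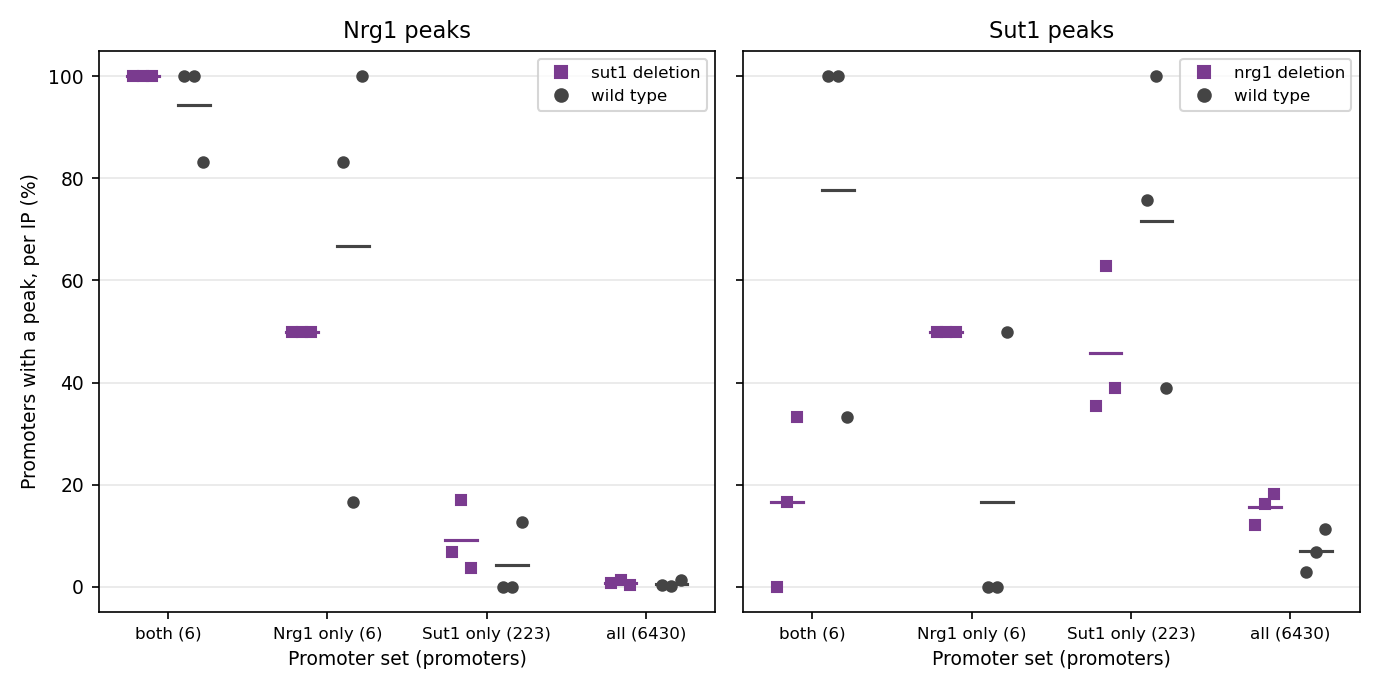
Share of each promoter set with a peak (percent), per IP, for Nrg1p (left: sut1Δ, squares; wild type, circles) and Sut1p (right: nrg1Δ, squares; wild type, circles), IP1 to IP3 from left to right, with the mean as a bar. All 6 shared promoters had an Nrg1p peak in each sut1Δ IP, and 0, 1 and 2 of them had a Sut1p peak in the nrg1Δ IPs, against 6, 6 and 2 in wild type.

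The Nrg1p-only promoters split in the deletion strains as they did by Sut1p record. XBP1 and SGA1 had Nrg1p scores of 2487.29, 3100 and 2871.63 in sut1Δ, against 644.91, none and 123.2 in wild type, and FET4 had 109.56, 649.0 and 87.81, against none, 90.68 and 53.95. None of these 3 had a Sut1p peak in nrg1Δ. RPL37B, PLM2 and YOR015W had no Nrg1p peak in any sut1Δ IP and a Sut1p peak in all 3 nrg1Δ IPs. Of the 12 Nrg1p-bound promoters, then, 9 had an Nrg1p peak in all 3 sut1Δ IPs and 3 in none of them.

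Nrg1p was also found in sut1Δ at promoters that were bound by Sut1p only in wild type. Of the 223, 15, 38 and 8 had an Nrg1p peak in the sut1Δ IPs (6.73%, 17% and 3.59%), against 0, 0 and 28 in the wild-type IPs. Over all promoters the shares were 0.7%, 1.34% and 0.342% in sut1Δ, against 0.28%, 0.218% and 1.32% in wild type. In at least 2 sut1Δ IPs Nrg1p occupied 15 of the 223 (6.73%, against 0.7% of all promoters), under 10 stretches, and 12 of the 15 had no Nrg1p peak in any wild-type IP. Because low Nrg1p support in wild type defined the set, these are values and not a test of a gain.

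Of these 15 promoters, 8 had an Nrg1p peak in all 3 sut1Δ IPs. They were YBL029C-A and YBL029W (601.0, 1039.26 and 218.98), CCW22 (205.64, 604.8 and 50.16), MGA1 (223.19, 864.75 and 115.06), RPI1 and RHO3 (252.38, 677.94 and 114.85), and YIR020C and PWR1 upstream of FLO11 (350.17, 1087.07 and 150.7). None of the 8 had an Nrg1p peak in wild type, and 5 of them are among the 15 strongest Sut1p-only promoters. HXT13 (111.1 and 166.8) and DSF1 (158.41 and 496.36) had Nrg1p peaks in sut1Δ IP1 and IP2, so that in that strain the third transporter and dehydrogenase pair carried Nrg1p as the pairs of HXT15 with SOR2 and HXT16 with SOR1 did. At these 15 promoters the sut1Δ Nrg1p midpoints lay a median of 91.5 bp from the wild-type Sut1p midpoints (94 pairs), and 68.75 bp with Sut1p IP3 left out (70 pairs), where 2 sut1Δ Nrg1p IPs lay 112.5 bp apart (31 pairs).

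Sut1p had a peak in nrg1Δ at 79, 140 and 87 of the 223 Sut1p-only promoters (35.4%, 62.8% and 39.0%), against 169, 223 and 87 in wild type. Of all promoters, 12.2%, 16.3% and 18.2% had a Sut1p peak in these nrg1Δ IPs. The share differed with the wild-type IPs that had made the call. Of the 136 promoters called from IP1 and IP2 alone, 16.9%, 48.5% and 19.1% had a Sut1p peak in the 3 nrg1Δ IPs, so that in IP3 the share lay near that of all promoters and in IP1 not far above it. Of the 54 called from IP2 and IP3 alone, 81.5%, 83.3% and 81.5% did, and of the 33 with all 3 IPs, 36.4%, 87.9% and 51.5%. In nrg1Δ IP1 and IP3 the highest share thus belonged to promoters that needed wild-type Sut1p IP3 for their call, and in nrg1Δ IP2 to those with all 3 wild-type IPs. The nrg1Δ cells were also grown apart from the wild-type cells, so strain and culture cannot be told apart.

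Of the other 4 tagged factors, none had a peak at a shared promoter in any of its wild-type IPs (0 of 9 IPs with a peak there). At the 223 Sut1p-only promoters Gcn4p had peaks in 13.9% to 24.2% of cases per IP, against 9.78% to 10.5% of all promoters. For Swi6p the shares were 13.0% to 15.2%, against 7.0% to 8.55%, for Swi4p 6.73%, against 2.26%, and for Rtg3p 3.14% to 12.6%, against 1.94% to 5.46%. Among the promoters bound by Nrg1p only, RPL37B and PLM2 had peaks of Swi4p and Swi6p and YOR015W had peaks of Rtg3p in 2 IPs, while XBP1, SGA1 and FET4 had none. XBP1, SGA1, FET4 and the 6 shared promoters had wild-type peaks of no factor of the series other than Nrg1p or Sut1p. The lists of the other factors cover 1.94% to 10.5% of all promoters per IP, so few peaks would fall on so few promoters in any case.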

How the data were processed

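ChIP-Seq peak lists of 3 Nrg1p-myc and 3 Sut1p-myc wild-type IPs were used. Per the submitters' processing notes and the methods, the authors called bases with CASAVA 1.8, aligned reads of 42 bases to R64 with Novoalign 2.07.0, discarded reads without a unique match and called peaks per IP against INPUT with MACS 1.4.0rc2. The deposited value per peak is the MACS score, at least 50 in all lists. The lists hold no read counts, so depth is unknown and no interval or detection limit that needs it is given. A control without a tagged factor was not analysed here.

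Names and promoters came from the RefSeq table of assembly R64 (6431 nuclear genes, 1 left out for want of a strand), with the strand read from the systematic name. Peak starts below base 1, 10 in the 6 lists, were set to 1. An overlap of at least 1 bp counted. Distances paired each peak with the nearest peak of the other IP at the same promoter. IPs were compared by two-sided exact permutation, with Benjamini-Hochberg adjustment. The members, the gene lists and the tests were chosen with earlier results of these data known. All names of the lists but 1 of the 158 transcription factor names were found.

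Genes named are all promoters bound by Nrg1p, the 15 Sut1p-only promoters of highest mean score where all 3 IPs had a peak (no peak counted as 0, ties in annotation order), NRG1 and SUT1, up to 4 bound members per list by mean score, and the 5 promoters with the highest mean Nrg1p score among those with a peak in 1 IP; the others were named after their values were seen. Alternatives were a peak in 1 or in all 3 IPs, scores from 100 upwards, 100 bp as the smallest overlap, shorter promoters (300 bp), a restriction to protein-coding genes, equal list lengths, stretches counted once, no peak of the other factor, a mean midpoint per factor, a replicate block and leaving out each IP. No sequence was used, so motifs were not searched. The overlap and permutation functions were tested on simulated data. The software was pandas 2.3.3 and NumPy 2.4.6 under Python 3.11.15, with plots from Matplotlib 3.10.9.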

Additional observations from a re-analysis of the deposited data

How the results depend on the processing

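The counts of promoters depended on the support asked for. With a peak in at least 1 IP, 77 promoters were bound by both, 23 by Nrg1p only and 1010 by Sut1p only, and with a peak in all 3 IPs the counts were 2, 3 and 33. With each Sut1p list limited to its 47 best peaks, the length of the longest Nrg1p list, they were 0, 12 and 60. Nrg1p-only promoters numbered 3 at a score of at least 100, and 3 without any Sut1p peak. Sut1p-only promoters numbered 132 with stretches counted once. Leaving out single IPs gave 2 to 6 shared promoters (2 without Sut1p IP1 or IP2), 0 to 10 bound by Nrg1p only (1 without Nrg1p IP1, 0 without Nrg1p IP3, 10 without Sut1p IP1 or IP2) and 33 to 224 bound by Sut1p only (87 without Sut1p IP1, 33 without IP2), as peaks were then needed in both remaining IPs. The median midpoint distance ranged from 39.2 to 176 bp over single IPs left out, was 102 bp between mean midpoints and 148 bp with a peak in at least 1 IP. The share of peaks in promoters, Nrg1p minus Sut1p, was 1.86 percentage points and ranged from -5.64 (without Sut1p IP3) to 6.04, with -3.96 without Nrg1p IP2. The share of histone genes was 3.33 points higher for Nrg1p, was -3.33 at a score of at least 100, and ranged from -3.33 (without Nrg1p IP3) to 6.67; the cause of these changes was not tested. Of 250 values recomputed under other settings, 226 did not reverse direction, or stayed within 1.5 times a count or 1 SD of a value. No test could change its call at 0.05, since the exact permutation P cannot go below 0.1. The SD of the midpoint distances was 509 bp, widened by the pairs with the 4694 bp Nrg1p IP2 peak, 1691 to 1750.5 bp apart. Each midpoint median given above stayed within that SD of the main 43.5 bp, those of 163 and 176 bp included. An SD this wide could hardly be left, so the midpoint values among the 226 say little about stability. Replicate numbers did not pair the samples: deviations of same-numbered IPs correlated at 0.0247, -0.0099 and -0.0136 over 1114 promoters. With a replicate block the peaks per IP differed by -297 (exact sign-flip permutation P = 0.25, the lowest 3 pairs allow). A block leaves the difference in means as it was, so no direction could change in the 22 comparisons. Limits are the unknown depth, peak widths near 1 kb, near-identical subtelomeric copies and IPs that share a culture.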
